A study of Mus musculus with 24 samples.

Results

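Collagen chain genes encode the alpha chains from which collagen molecules are wound. They were taken from the deposited gene table by symbol, as Col, a number, the letter a and a second number, with at least 240 counts summed over the 24 libraries. Of the 26253 genes in the table, 44 had such a symbol and 34 of these had the counts. All 34 also passed the filter on low counts, which left 16153 genes for testing. Col6a4 (270 counts) and Col6a5 (324 counts) lay just inside the minimum. Just outside it were Col25a1 with 191 counts, Col11a1 with 147 and Col6a6 with 140. The other 7 genes below it were Col24a1, Col22a1, Col9a2, Col10a1, Col19a1, Col2a1 and Col9a1, with 129 counts for the first and 1 for the last.

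The study sequenced RNA of mouse lung. The animals had eaten either a control diet or one enriched in DHA (docosahexaenoic acid, an omega-3 fatty acid of fish oil) before exposure to filtered air or to the oxidant gas ozone. Its 4 groups were control-diet air, control-diet ozone, DHA-diet air and DHA-diet ozone, with 6 libraries each. Strain, genotype, age, sex, the ozone dose, the hours of exposure and the weeks on each diet were not stated in the labels. Whether each library is a mouse of its own was not stated either, so the p-values reflect the spread between these libraries, which may be technical. Levels are counts-per-million (CPM) with library sizes scaled by the trimmed mean of M-values. Changes are log2 fold changes ± SE from 1 edgeR model over the 24 libraries, called where the p adjusted by Benjamini-Hochberg over all 16153 genes was under 0.05. The SE was derived from the test, as the absolute change divided by the square root of its F statistic.

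Library totals ran from 18053493 to 26225630 counts. All 6 lung epithelium markers were present in every library, and their summed level lay between 85971 and 159268 CPM. Scgb1a1 carried most of these sums, at a mean of 92103 CPM over the 24 libraries, followed by Sftpc at 22900. Library 1 of the DHA-diet ozone group had the lowest of these sums, and its neutrophil marker sum was 273 CPM, with 356 CPM in library 2 of that group. Elsewhere the neutrophil sum lay at or below 198 CPM. Libraries 1 to 3 of the control-diet air group held 4019 to 4146 CPM of 12 ribosomal protein genes against 4874 to 5024 in libraries 4 to 6. Of 14 cartilage marker genes, Acan, Matn1, Ucma and Epyc were at 0 in 21, 21, 21 and 23 of the libraries, while 6, Matn4, Chad, Cytl1, Sox9, Comp and Hapln1, were at 0 in none. The alveolar macrophage marker sum (7 genes) ran from 157 to 262 CPM in control-diet air, 298 to 402 after ozone on that diet, 187 to 258 in DHA-diet air and 283 to 421 after ozone on the DHA diet. This sum was thus higher with ozone, without overlap, on both diets, and its part in the ozone results was not tested. Chil3 carried most of it, at a mean of 200 CPM over the 24 libraries, followed by Ctsk at 34.0. The sum therefore speaks mainly for Chil3. In such bulk tissue, fewer cells of a type and less RNA per cell cannot be told apart.

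Collagens are secreted or membrane-bound proteins whose chains fold together in the endoplasmic reticulum, after hydroxylation of their prolines and lysines. Fibril-forming collagens I, III and V give the lung its tensile strength, and the FACIT collagens (fibril-associated collagens with interrupted helices) sit on the fibril surface. Network-forming collagen IV lies in the basement membranes under epithelium and endothelium, collagen VI forms beaded filaments around cells, and collagen VII anchors epithelium to the tissue below. Excess fibrillar collagen is a hallmark of lung fibrosis.

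Collagen RNA in these lungs was mostly that of basement membrane, fibril and beaded-filament chains. The 6 collagen IV genes made up 38.6% of the summed collagen CPM over the 24 libraries, the 8 fibril-forming genes 31.3% and the 5 collagen VI genes 17.3%. The 3 transmembrane genes held 5.18%, the 5 FACIT genes 3.99%, the 2 multiplexins 1.60%, the 2 hexagonal-network genes 1.51%, Col7a1 0.376%, and Col26a1 with Col28a1 0.0940%. Of the 34 genes, 8 averaged 100 CPM or more, 16 lay between 10 and 100, 7 between 1 and 10, and 3 under 1. The 7 most abundant, Col4a1, Col4a2, Col1a2, Col3a1, Col6a1, Col1a1 and Col6a2, held 70.0% of the total.

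Per kilobase of exon, which allows levels of different genes to be compared, the order was led by Col4a1 at 63.3 CPM per kb, Col6a1 at 60.4, Col4a2 at 57.3, Col1a2 at 55.2 and Col3a1 at 51.4. These 5 genes lay within 1 SD of a neighbour in at least 1 group. Col1a1 and Col6a2 followed at 28.2 and 27.3 CPM per kb. The next were the transmembrane genes Col13a1 and Col23a1, at 15.8 and 15.6, ahead of Col4a5 (12.7) and Col4a3 (12.2). Col6a4 and Col6a5 were lowest, at 0.0681 and 0.0645 CPM per kb. Exon lengths came from GENCODE M21 (GRCm38) and were found for 34 of 34 genes.

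**Figure D1:**
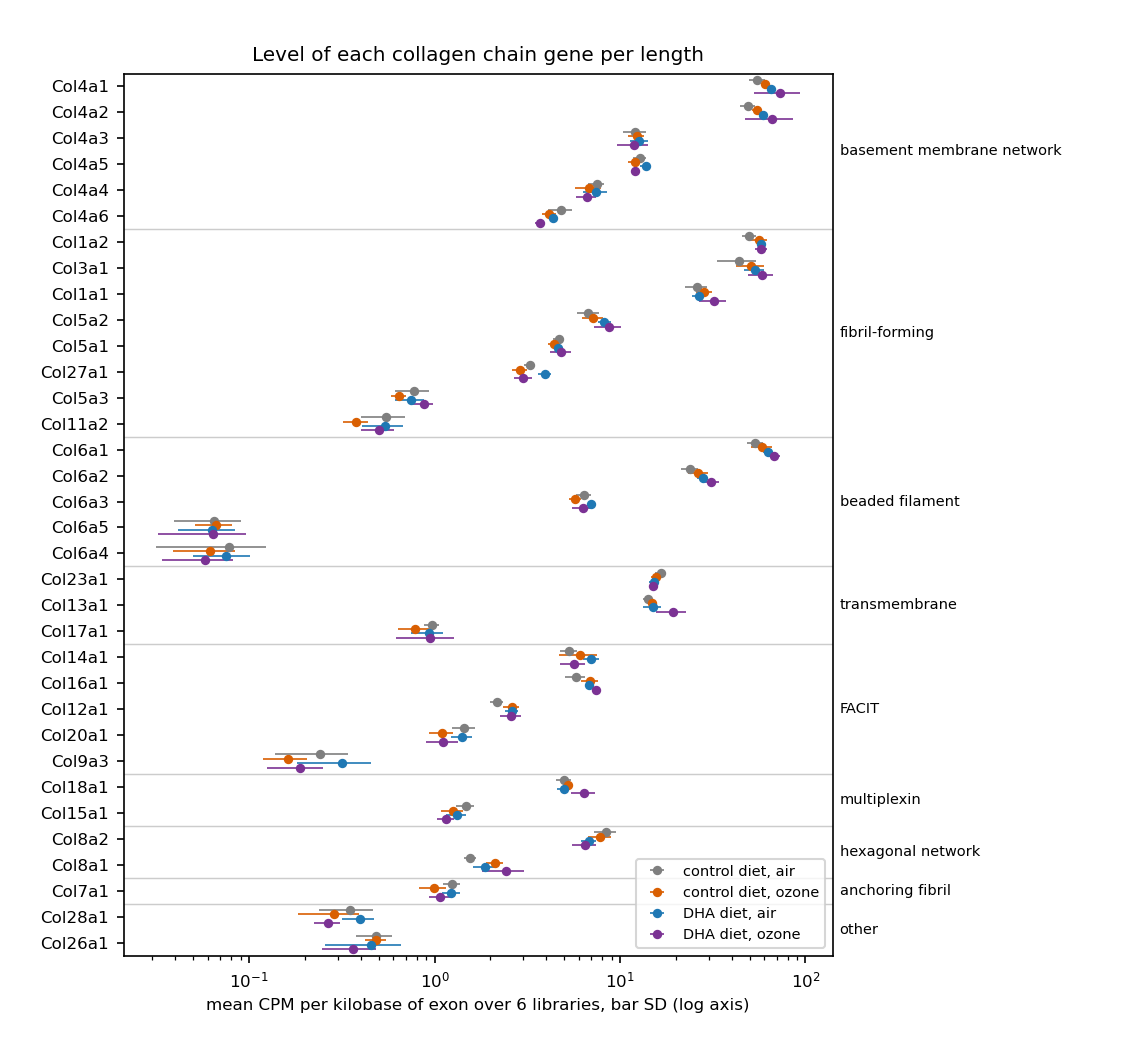
Mean level of each of the 34 collagen chain genes per kilobase of exon (log axis) in the 4 groups, by collagen class; bars are the SD over 6 libraries. Levels run from 0.0645 CPM per kb for Col6a5 to 63.3 for Col4a1 over the 24 libraries, and differences between groups are small beside differences between genes.

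The summed level of the 34 genes was 2531 ± 217 CPM (SD, n = 6) in control-diet air, 2712 ± 195 after ozone on that diet, 2860 ± 87.6 in DHA-diet air and 3030 ± 414 after ozone on the DHA diet. Library 1 of the last group reached 3793 CPM. As a share of all counts, collagen RNA took 0.257%, 0.268%, 0.287% and 0.302% in the same order. No test was made on these sums.

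Ozone on the control diet left the collagen genes split. Against filtered air, 3 of 34 rose and 3 fell, 17.6% together, beside 16.8% of all 16153 genes called in this comparison (8.93% higher and 7.87% lower). The median log2 change of the 34 was −0.04 and that of all genes −0.01. With library totals in place of scaling, 2 rose and 5 fell, and the split over all genes went from 1442 higher and 1271 lower to 940 and 1737, with a median change of −0.04. Those that rose were Col8a1, Col12a1 and Col16a1, and those that fell were Col7a1, Col11a2 and Col20a1. None of the 6 collagen IV or 5 collagen VI genes passed the test, and Col11a2 was the only fibril-forming gene that did.

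On the DHA diet, ozone raised 4 of the 34 genes and lowered 4, 23.5% together, beside 23.7% of all genes (12.7% higher and 11% lower). The median log2 change was −0.02 for the collagens and −0.01 for all genes. Col1a1, Col8a1, Col13a1 and Col18a1 rose; Col4a5, Col4a6, Col20a1 and Col27a1 fell. The shares of collagens called were thus close to those of the whole table on either diet. Both ozone comparisons called Col8a1 higher and Col20a1 lower.

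**Figure D2:**
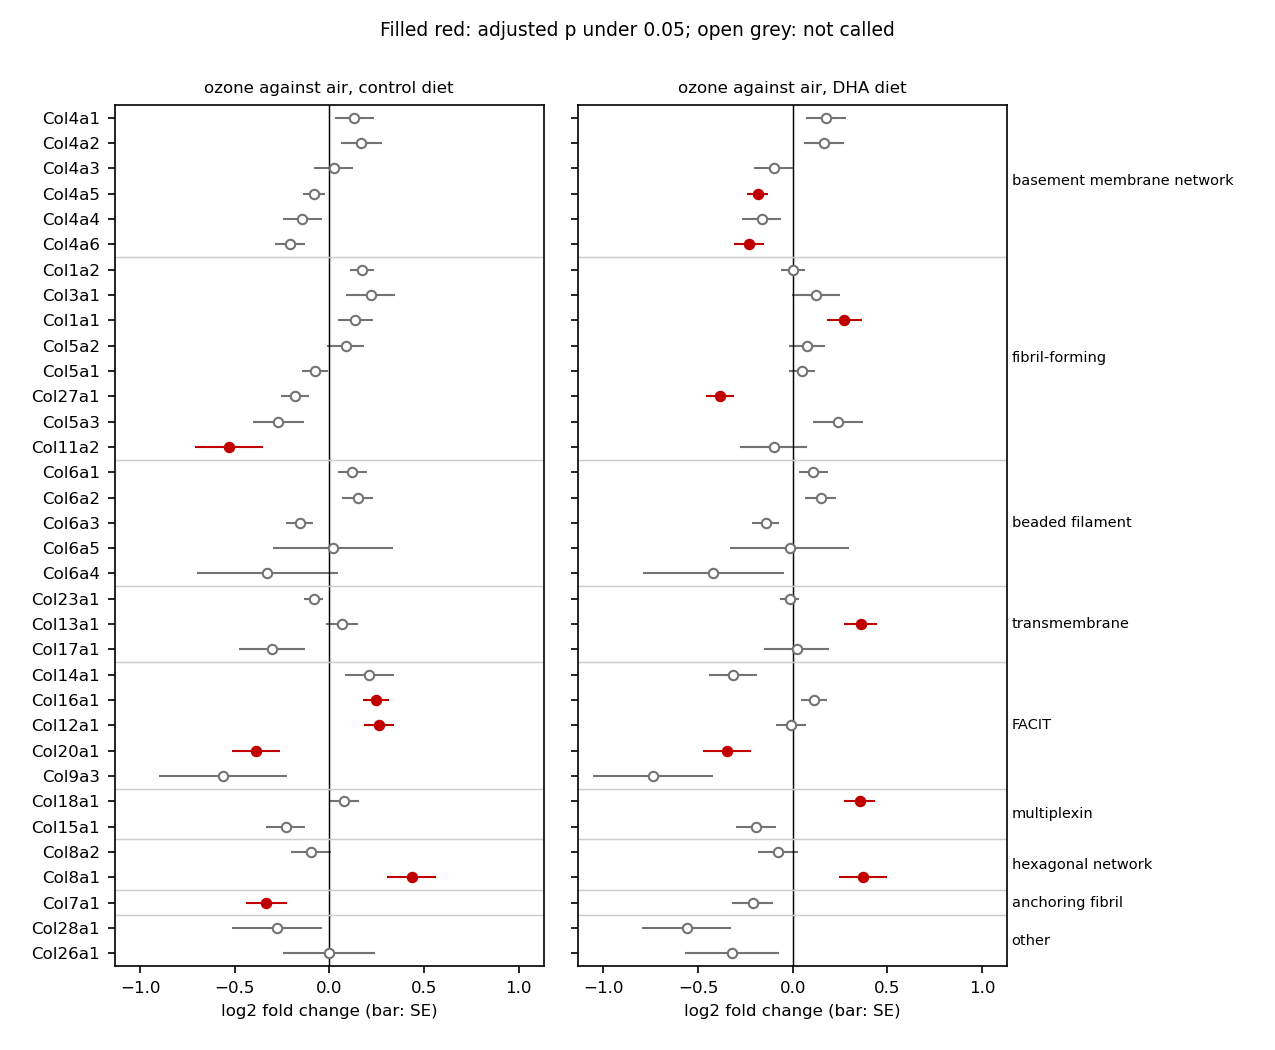
Log2 fold change of ozone against air for the 34 collagen chain genes, by class, on the control diet (left) and the DHA diet (right); bars are SE, and filled red points passed an adjusted p of 0.05. On the control diet 3 genes rose and 3 fell, and on the DHA diet 4 rose and 4 fell.

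Bases upstream of the start are shown for 4 called genes: Col8a1, called on both diets; Col13a1 and Col27a1, whose calls on the DHA diet held in every alternative; and Col4a6, which starts back to back with Col4a5. They are RefSeq sequences on GRCm38.p6, 5′ to 3′ on the gene's strand, 250 bases each, and overlap 0 GENCODE M21 exons. The locations are chr16:57754738-57754987 (minus strand) for Col8a1, chr10:61979109-61979358 (minus) for Col13a1, chr4:63215162-63215411 (plus) for Col27a1 and chrX:141474077-141474326 (minus) for Col4a6. Capitals mark matches, on either strand, to TATAAA (bound by the TATA-binding protein), CCAAT (bound by NF-Y), GGGCGG (a GC box, bound by Sp1), CAGACA (a Smad-type element) or TGACTCA (an AP-1 site).
Col8a1: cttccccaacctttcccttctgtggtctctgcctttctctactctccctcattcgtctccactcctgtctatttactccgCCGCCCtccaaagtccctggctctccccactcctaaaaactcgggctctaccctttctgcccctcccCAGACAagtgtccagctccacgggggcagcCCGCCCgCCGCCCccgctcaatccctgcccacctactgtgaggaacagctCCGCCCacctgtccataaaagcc
Col13a1: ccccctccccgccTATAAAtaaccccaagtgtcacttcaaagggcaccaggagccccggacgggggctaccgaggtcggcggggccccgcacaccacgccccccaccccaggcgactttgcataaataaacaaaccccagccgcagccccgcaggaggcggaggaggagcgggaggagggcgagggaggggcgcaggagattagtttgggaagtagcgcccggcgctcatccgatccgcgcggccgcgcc
Col27a1: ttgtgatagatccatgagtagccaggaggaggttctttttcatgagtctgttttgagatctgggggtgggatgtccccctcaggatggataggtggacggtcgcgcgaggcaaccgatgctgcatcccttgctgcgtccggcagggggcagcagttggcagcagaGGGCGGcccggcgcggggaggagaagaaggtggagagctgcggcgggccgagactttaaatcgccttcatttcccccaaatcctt
Col4a6: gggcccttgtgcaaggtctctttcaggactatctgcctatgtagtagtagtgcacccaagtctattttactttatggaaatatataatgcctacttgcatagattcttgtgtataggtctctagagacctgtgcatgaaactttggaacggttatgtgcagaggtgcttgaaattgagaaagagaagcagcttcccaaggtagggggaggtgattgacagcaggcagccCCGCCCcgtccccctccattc

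In the deposited mm39 coordinates, the genes span 57444619 to 57575101 of chromosome 16 (Col8a1), 61674013 to 61814888 of chromosome 10 (Col13a1), 63133649 to 63253228 of chromosome 4 (Col27a1) and 139948399 to 140257073 of chromosome X (Col4a6). No motif was shared by all 4 upstream stretches. The Col8a1 stretch held 4 matches to GGGCGG, the nearest beginning 23 bases before the start, and 1 to CAGACA beginning 103 bases before it. Col13a1 had 1 TATAAA, 237 bases before the start, and Col27a1 and Col4a6 had 1 GGGCGG each. RefSeq windows, from 250 bases before to 50 after the start, were found for 27 of the 34 genes. At least 1 GGGCGG was present for 18 of these 27 (66.7%), beside 35.7% of all 32851 windows. CCAAT was present for 10 (37.4% of all windows), CAGACA for 8 (21.04%), TATAAA for 4 (13.6%) and TGACTCA for 1 (5.20%). A match is a description of letters and not a binding site.

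**Figure D3:**
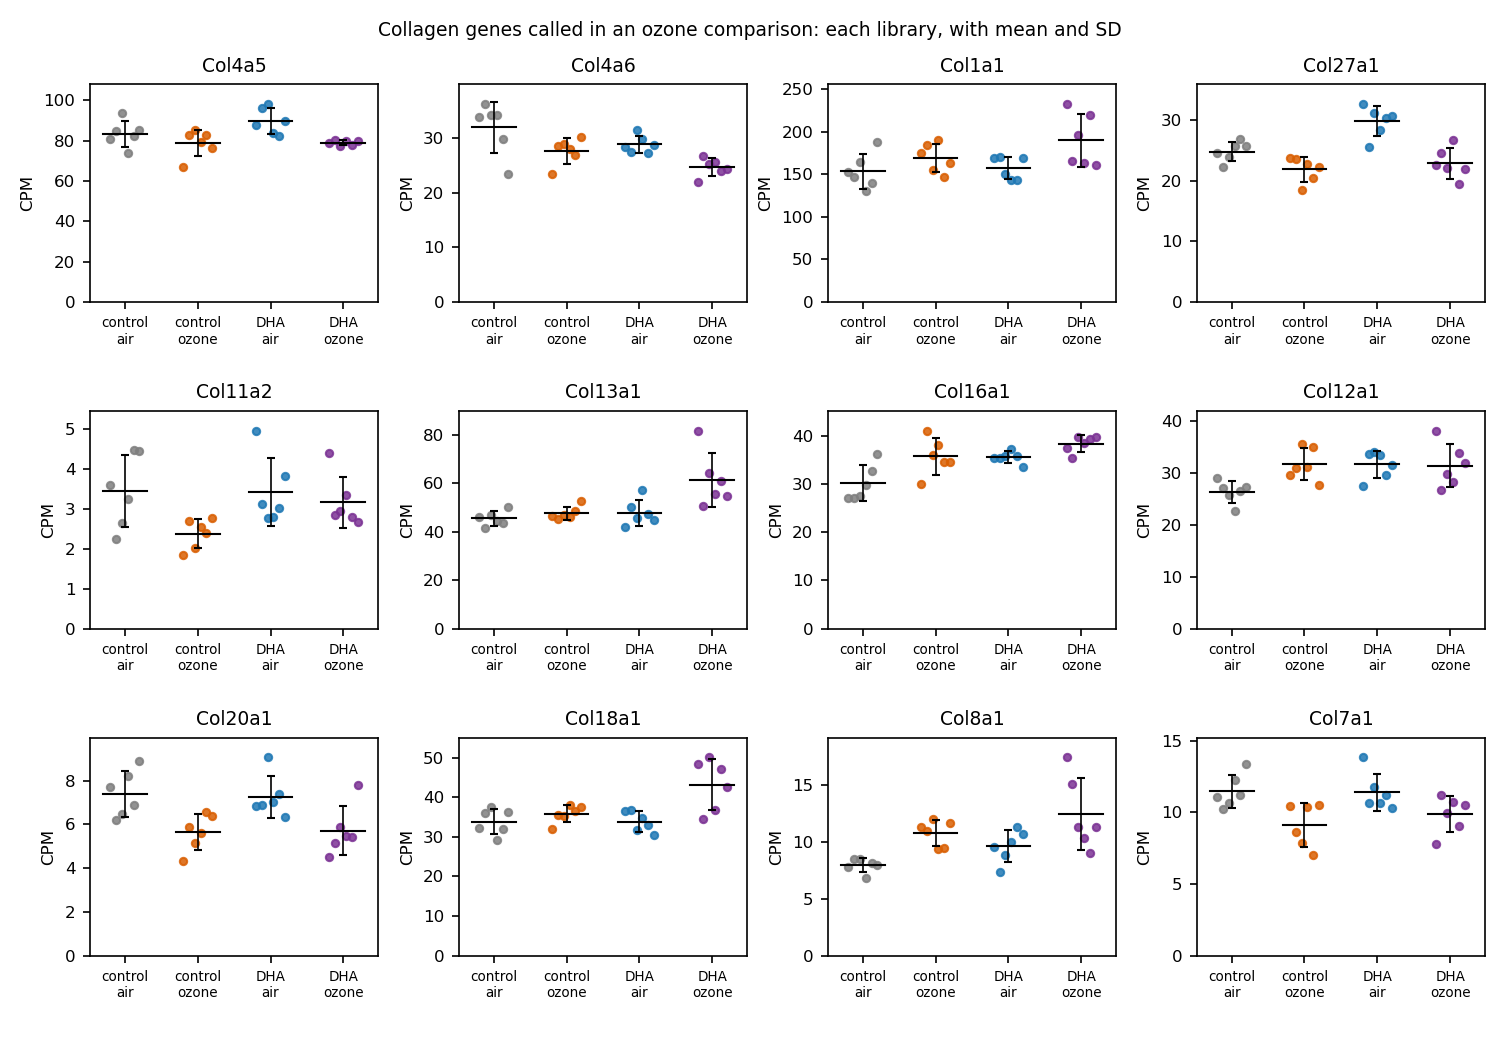
CPM in each of the 6 libraries per group for the 12 collagen chain genes called in an ozone comparison; lines are means and bars SD, and each axis starts at 0. Col8a1 in control-diet ozone lies wholly above control-diet air, and Col4a5 and Col4a6 in DHA-diet ozone lie wholly below DHA-diet air.

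Among the fibril-forming chains, Col1a1, 1 of the pair of chains of collagen I, lay at 130.0, 150.1 and 188 CPM (lowest, median and highest of 6 libraries) in control-diet air and at 147, 169 and 189.7 in control-diet ozone. Its values were 143, 159 and 169.9 in DHA-diet air and 161, 181 and 233 in DHA-diet ozone. The groups overlapped on both diets. Ozone raised Col1a1 on the DHA diet by 0.27 ± 0.09 (1.21-fold, adjusted p = 0.0333), and the estimate on the control diet was 0.14 ± 0.09 (adjusted p = 0.332). The DHA-diet call was lost when any of DHA-diet air libraries 3, 4 or 5 or DHA-diet ozone libraries 1, 3 or 5 was left out, with changes of 0.20 to 0.26 and adjusted p-values of 0.0612 to 0.0985. Library totals in place of scaling also ended it (0.26, adjusted p = 0.0519), as did leaving out DHA-diet ozone libraries 1 and 2 together (0.24, adjusted p = 0.0685). Its partner Col1a2, the most abundant fibril-forming gene by CPM, lay at 242, 258 and 307 CPM in control-diet air, 274, 286 and 339 after ozone on that diet, 289, 307 and 326 in DHA-diet air and 283, 303 and 343 after ozone on the DHA diet. Ozone gave 0.17 ± 0.06 on the control diet (adjusted p = 0.0576) and 0.00 on the DHA diet (adjusted p = 0.996).

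Counts of Col1a1 per count of Col1a2 accordingly differed most on the DHA diet. The ratio ran from 0.477 to 0.544 in DHA-diet air and from 0.532 to 0.770 in DHA-diet ozone, with 0.770 in library 1. In control-diet air it ran from 0.537 to 0.611 and in control-diet ozone from 0.537 to 0.636. Col3a1, whose collagen III mixes with collagen I in elastic tissue, did not pass the ozone test on either diet (0.22 ± 0.13 and 0.12 ± 0.13), but on the control diet it did without control-diet air library 6 (0.34, adjusted p = 0.0467). Col1a2 passed there without that library or control-diet ozone library 1 or 5 (0.20 to 0.21, adjusted p = 0.0190 to 0.0397). It also passed there with another test, limma-voom (0.20, adjusted p = 0.0204).

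Col27a1, a minor fibrillar chain prominent in cartilage, had the smallest adjusted p of any collagen gene in these comparisons. It lay at 25.6, 30.5 and 32.8 CPM in DHA-diet air and at 19.4, 22.4 and 26.8 in DHA-diet ozone. In control-diet air it lay at 22.3, 25.1 and 26.9, and in control-diet ozone at 18.5, 22.6 and 23.9. DHA-diet air was the highest group, and its lowest library overlapped the highest of DHA-diet ozone. The ozone change on the DHA diet was −0.38 ± 0.07 (0.767-fold, adjusted p = 0.000518), and on the control diet −0.18 ± 0.07 (adjusted p = 0.0961). With library totals in place of scaling the control-diet change was called as well (−0.22, adjusted p = 0.0392). The DHA-diet call held in 35 of 35 alternatives at the same threshold, some of which left out only control-diet libraries. The difference between the diets did not pass (interaction −0.20 ± 0.10, adjusted p = 0.845).

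Col11a2, a chain of the cartilage-type collagen XI that is scarce in lung, lay at 2.26, 3.42 and 4.48 CPM in control-diet air and at 1.86, 2.46 and 2.77 in control-diet ozone. Values on the DHA diet were 2.77, 3.06 and 4.96 in air and 2.66, 2.89 and 4.39 after ozone. It fell on the control diet by 0.53 ± 0.18 on the log2 scale (adjusted p = 0.0442). That call was lost in 13 of 35 alternatives, among them the removal of any of control-diet air libraries 1, 4, 5 and 6 or control-diet ozone libraries 1, 3, 4 and 5, with adjusted p-values up to 0.416. The summed level of 14 cartilage marker genes ran from 157 to 187 CPM in control-diet air, 159 to 171 after ozone on that diet, 149 to 179 in DHA-diet air and 113 to 160 after ozone on the DHA diet. Matn4, Chad and Cytl1 carried most of it, and its part in the Col11a2 and Col27a1 values was not tested.

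Col5a1, Col5a2 and Col5a3, chains of collagen V that nucleates fibrils, were not called for ozone. Col5a3 gave −0.27 ± 0.14 on the control diet and 0.24 ± 0.13 on the DHA diet, estimates of opposite sign whose difference, 0.51 ± 0.19, had an adjusted p of 0.693.

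Basement membrane collagen IV is built from a common pair of chains, Col4a1 and Col4a2, and from minor chains that replace them in specialised membranes such as that of the alveolus. The common pair did not pass the ozone test on either diet. Col4a1, the most abundant gene of the class, lay at 307, 373 and 404 CPM in control-diet air and at 375, 397 and 424 in control-diet ozone. On the DHA diet it lay at 402, 432 and 443 CPM in air and at 404, 439 and 758 after ozone. Col4a2 lay at 270.1, 318 and 358 CPM, 329, 347 and 387 CPM, 370.4, 379 and 395 CPM and 349.7, 387 and 676 CPM in the same groups. The top value of each came from library 1 of DHA-diet ozone, and the next highest of that group were 457 and 404 CPM. With this library the ozone changes on the DHA diet were 0.18 for Col4a1 and 0.17 for Col4a2, and without it 0.00 and −0.01 (adjusted p = 0.989 and 0.899). On the control diet, Col4a2 was called higher when that library was left out of the shared fit (0.16, adjusted p = 0.0372). Limma-voom called it higher there too (0.20, adjusted p = 0.0317).

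The pair kept a near-constant proportion. Col4a1 counts per Col4a2 count lay between 1.04 and 1.21 in all 24 libraries, library 1 of DHA-diet ozone included. Their genes start back to back on chromosome 8, and the deposited mm39 spans share 23 bases. With no strand setting given, reads in the shared stretch cannot be assigned to either gene. Col6a1 and Col6a2, 85160 bases apart on chromosome 10, had a ratio between 1.38 and 1.61.

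**Figure D4:**
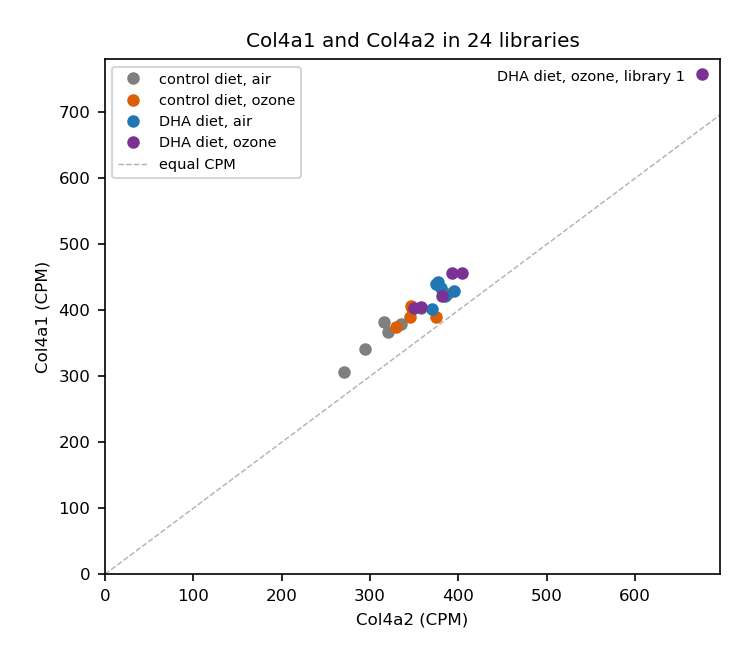
Col4a1 against Col4a2 in CPM in each of the 24 libraries; the dashed line marks equal levels and both axes start at 0. Library 1 of the DHA-diet ozone group stands at 758 and 676 CPM, and the other 23 libraries lie at or below 457 and 404 CPM.

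Of the 4 minor chains, Col4a5 and Col4a6 fell with ozone on the DHA diet. Col4a5 lay at 82.2, 88.9 and 98.3 CPM in DHA-diet air and at 77.3, 79.3 and 80.5 in DHA-diet ozone, with every ozone library below every air library. Control-diet values were 73.8, 83.6 and 93.5 CPM in air and 67.1, 80.9 and 85.4 after ozone. Col4a6 lay at 27.2, 28.6 and 31.4 CPM in DHA-diet air and at 21.9, 24.8 and 26.7 after ozone, again without overlap, and at 23.4, 34.0 and 36.3 and 23.5, 28.3 and 30.1 on the control diet. Of all genes, 9.03% had groups that did not overlap in this comparison. Col4a5 fell by 0.18 ± 0.06 (adjusted p = 0.0175) and Col4a6 by 0.23 ± 0.08 (adjusted p = 0.0369) on the log2 scale. On the control diet the changes were −0.08 ± 0.06 (adjusted p = 0.353) and −0.21 ± 0.08 (adjusted p = 0.0691).

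Both calls were near the threshold, and without control-diet air library 6 Col4a6 was called lower on the control diet too (−0.29, adjusted p = 0.00303). Library totals in place of scaling (−0.25, adjusted p = 0.0351) and limma-voom (−0.22, adjusted p = 0.0239) also called it lower there. Without DHA-diet air library 2 or 3 the Col4a5 adjusted p was 0.0541 or 0.0533, at changes of −0.16. For Col4a6 the call was lost without any of DHA-diet air libraries 1, 3, 4 and 6 or DHA-diet ozone libraries 1, 5 and 6, at changes of −0.20 to −0.23 and adjusted p-values of 0.0514 to 0.0834. That call was also lost with no filter (−0.22, adjusted p = 0.0515) and without DHA-diet ozone libraries 1 and 2 together (−0.21, adjusted p = 0.0784). The genes lie back to back on chromosome X, 1341 bases apart in the deposited coordinates. Col4a3 and Col4a4, another such pair 70 bases apart on chromosome 1, were not called. Their ozone changes on the DHA diet were −0.10 ± 0.10 and −0.16 ± 0.10.

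Collagen VI, the beaded filament, held no ozone call on either diet in edgeR. Its most abundant gene, Col6a1, lay at 190.4, 216 and 251 CPM in control-diet air, 179, 246 and 267 after ozone on that diet, 238, 251 and 276 in DHA-diet air and 247, 276 and 312 after ozone on the DHA diet. Ozone estimates for Col6a1 and Col6a2 were between 0.11 and 0.15 on both diets, while those of Col6a3, the large chain of the filament, were −0.15 ± 0.07 and −0.14 ± 0.07. Without control-diet ozone library 1, the lowest for Col6a1 and Col6a2, both genes were called higher on the control diet (0.20 and 0.22, adjusted p = 0.0379 and 0.0452). Without DHA-diet ozone library 1, Col6a3 was called lower on the DHA diet (−0.21, adjusted p = 0.0195). With all libraries kept, limma-voom called Col6a1 and Col6a2 higher on the control diet (0.18 and 0.21, adjusted p = 0.0464 and 0.0375). It called Col6a3 lower on the DHA diet (−0.17, adjusted p = 0.0352). Col6a4 and Col6a5, at means under 1 CPM, had standard errors above 0.3.

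Col8a1, the hexagonal-network chain made by vascular and smooth muscle cells in remodelling tissue, had the largest rise of the called collagen genes. It lay at 6.81, 8.04 and 8.51 CPM in control-diet air and at 9.39, 11.1 and 11.97 in control-diet ozone, every ozone library above every air library. Such separation in either direction was seen for 7.76% of all genes. On the DHA diet the values were 7.34, 9.75 and 11.3 CPM in air and 9.01, 11.3 and 17.4 after ozone, where libraries 1 and 2 stood at 17.4 and 15.1. Col8a1 rose by 0.44 ± 0.13 on the control diet (1.35-fold, adjusted p = 0.0208) and by 0.37 ± 0.13 on the DHA diet (1.29-fold, adjusted p = 0.0334). The control-diet call was lost without control-diet air library 4 and without libraries 1 to 3 or 4 to 6 of that group, with changes of 0.37 to 0.49. The DHA-diet call was lost without DHA-diet air library 2 or 3 or DHA-diet ozone library 1 or 2 (changes of 0.24 to 0.34, adjusted p = 0.0724 to 0.123), and without ozone libraries 1 and 2 together the change was 0.13 (adjusted p = 0.407). It was lost too with limma-voom (0.22, adjusted p = 0.153), with the 2 groups alone (adjusted p = 0.0893) and with the replicate number as a block (adjusted p = 0.0540).

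The smooth muscle marker sum lay at 664 to 1002 CPM in control-diet air and 812 to 899 in control-diet ozone, and at 632 to 774 in DHA-diet air and 888 to 1006 in DHA-diet ozone. Its part in the Col8a1 values was not tested. Col8a2, the more abundant partner, lay at 26.3, 38.0 and 39.2 CPM in control-diet air, 29.2, 32.8 and 43.0 after ozone on that diet, 25.1, 29.5 and 32.5 in DHA-diet air and 20.96, 29.2 and 32.2 after ozone on the DHA diet. Its ozone estimates, −0.10 ± 0.10 and −0.08 ± 0.10, had the opposite sign to those of Col8a1.

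The anchoring-fibril gene Col7a1 lay at 10.2, 11.2 and 13.4 CPM in control-diet air and at 6.99, 9.50 and 10.5 in control-diet ozone, with slight overlap. On the DHA diet it lay at 10.3, 10.9 and 13.8 CPM in air and at 7.78, 10.2 and 11.2 after ozone. It fell on the control diet by 0.33 ± 0.11 (adjusted p = 0.0337), and the DHA-diet estimate was −0.21 ± 0.11 (adjusted p = 0.154). Removing library 4 or 6 of control-diet air, or library 2, 3 or 5 of control-diet ozone, ended the call, and without control-diet air libraries 4 to 6 the change was −0.23 (adjusted p = 0.220).

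Of the FACIT genes, Col12a1 and Col16a1 rose on the control diet and Col20a1 fell on both. Col12a1 lay at 22.7, 26.8 and 28.9 CPM in control-diet air and at 27.7, 31.0 and 35.6 in control-diet ozone, and at 27.5, 32.5 and 33.9 and 26.7, 30.8 and 38.1 CPM in DHA-diet air and DHA-diet ozone. Control-diet air was the low group, and the other groups covered much the same range. The rise on the control diet was 0.26 ± 0.08 (1.20-fold, adjusted p = 0.0232), beside −0.01 ± 0.08 on the DHA diet. It did not pass once library 4 of control-diet air or library 3 or 5 of control-diet ozone was removed, nor with library totals in place of scaling. Leaving out libraries 1 to 3 or 4 to 6 of control-diet air also ended the call. Changes were 0.21 to 0.31 over the alternatives.

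Col16a1 lay at 27.2, 28.7 and 36.3 CPM in control-diet air, 29.9, 35.3 and 41.1 after ozone on that diet, 33.5, 35.6 and 37.3 in DHA-diet air and 35.5, 38.9 and 39.8 after ozone on the DHA diet. Its rise on the control diet was 0.25 ± 0.07 (1.19-fold, adjusted p = 0.0153), beside 0.11 ± 0.07 on the DHA diet (adjusted p = 0.247). The call was lost without control-diet ozone library 2 and with the 2 groups alone (0.25, adjusted p = 0.0580). Without control-diet air libraries 1 to 3 the change was 0.11 (adjusted p = 0.390), against 0.38 (adjusted p = 0.000948) without libraries 4 to 6. The ribosomal protein difference between these parts of the control-diet air group was given above, and its part in this result was not tested.

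Col20a1, a FACIT gene of little-studied function, lay at 6.21, 7.31 and 8.92 CPM in control-diet air and at 4.33, 5.74 and 6.56 after ozone. With the DHA diet it lay at 6.32, 6.95 and 9.07 CPM in air and at 4.51, 5.45 and 7.81 after ozone. It fell by 0.39 ± 0.13 (adjusted p = 0.0353) and by 0.35 ± 0.13 (adjusted p = 0.0452). These calls were lost in 7 and 18 of 35 alternatives, with adjusted p-values up to 0.222 and 0.219; no direction changed. Col14a1, which regulates fibril diameter and was the most abundant FACIT gene, lay at 30.2, 34.0 and 40.2 CPM in control-diet air, 21.8, 42.0 and 47.9 after ozone on that diet, 37.5, 46.6 and 50.2 in DHA-diet air and 25.7, 37.7 and 41.3 after ozone on the DHA diet. Its ozone estimates were 0.21 ± 0.13 and −0.31 ± 0.13, neither called, and without control-diet ozone library 1, its lowest library, both were (0.34, adjusted p = 0.0190, and −0.31, adjusted p = 0.0148). The difference between the diets, −0.53 ± 0.18, had the smallest adjusted p of any interaction among the 34 genes, 0.658.

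Col13a1 and Col18a1, which lie outside the matrix fibrils, rose with ozone on the DHA diet in 35 of 35 alternatives at the same threshold. Some of these left out only control-diet libraries, which are in neither group compared. Col13a1, a transmembrane collagen of cell adhesion sites, lay at 41.9, 46.6 and 57.2 CPM in DHA-diet air and at 50.5, 58.3 and 81.8 in DHA-diet ozone, with library 1 highest. Control-diet air lay at 41.6, 45.3 and 50.1 CPM and control-diet ozone at 45.3, 46.9 and 52.6. The rise was 0.36 ± 0.08 (1.28-fold, adjusted p = 0.00310), and 0.26 (adjusted p = 0.00731) without DHA-diet ozone library 1. On the control diet the change was 0.07 ± 0.09 (adjusted p = 0.647).

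Col18a1, a basement membrane multiplexin whose end fragment is endostatin, lay at 30.4, 33.9 and 36.8 CPM in DHA-diet air and at 34.4, 44.8 and 50.05 in DHA-diet ozone. In control-diet air it lay at 29.1, 34.2 and 37.4 CPM and in control-diet ozone at 32.0, 36.0 and 37.9, so DHA-diet ozone was the high group, with 2 of its libraries within the range of the others. The rise was 0.35 ± 0.08 (1.28-fold, adjusted p = 0.00216), and 0.08 ± 0.08 (adjusted p = 0.551) on the control diet. The differences between the diets were 0.29 ± 0.12 for Col13a1 and 0.27 ± 0.11 for Col18a1, and neither passed (adjusted p = 0.731 for each). Endothelial marker sums ran from 2253 to 2466 CPM in DHA-diet air and from 1979 to 2509 in DHA-diet ozone. Smooth muscle sums, 632 to 774 against 888 to 1006 CPM, did not overlap between these groups. Nor did the alveolar macrophage sums given above, which are mostly Chil3. The part of these lists in the Col13a1 and Col18a1 values was not tested.

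Of the remaining genes, Col23a1, the most abundant transmembrane collagen, lay at 81.8, 97.5 and 98.6 CPM in control-diet air, 81.6, 89.0 and 96.8 after ozone on that diet, 78.1, 88.5 and 89.2 in DHA-diet air and 81.5, 84.1 and 90.2 after ozone on the DHA diet. Its ozone estimates were −0.08 ± 0.05 and −0.02 ± 0.05. Col17a1, of epithelial hemidesmosomes, and Col15a1, of basement membranes, were not called, with estimates of −0.30 ± 0.18 and −0.23 ± 0.10 on the control diet and 0.02 ± 0.17 and −0.20 ± 0.10 on the DHA diet. Col28a1, a chain with von Willebrand factor type A domains, lay at 0.674, 1.504 and 2.06 CPM in control-diet air, 0.678, 1.21 and 1.76 after ozone on that diet, 1.11, 1.78 and 2.05 in DHA-diet air and 0.834, 1.14 and 1.34 after ozone on the DHA diet. Col26a1 lay at medians of 1.34, 1.34, 1.18 and 0.846, and Col9a3 at 0.595, 0.493, 1.09 and 0.582. None of these low genes was called, but Col28a1 was called lower on the DHA diet with the 2 groups alone (−0.56, adjusted p = 0.0436) and without DHA-diet air library 4 (−0.66, adjusted p = 0.0499), and Col9a3 was called lower on the DHA diet without DHA-diet air library 6, its lowest (−0.94, adjusted p = 0.0115).

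The diet comparison in filtered air called none of the 34 genes in edgeR, beside 1.15% of all genes, and the smallest adjusted p was 0.0669, for Col27a1. At an unadjusted p under 0.05 there were 14, 12 of them higher and 2 lower on the DHA diet, beside 8.46% of all genes higher and 8.86% lower. Without control-diet air libraries 1 to 3, whose ribosomal protein sums were low, 4 of the 34 had such a p and none of 16416 genes was called; without libraries 4 to 6 there were 12, with 5 called higher and 3 lower and 9.43% of all genes called. DESeq2 called 5 genes higher (3.65% of all genes called): Col1a2, Col12a1, Col14a1, Col16a1 and Col27a1. Limma-voom with sample quality weights called 10 higher and 1 lower (5.26% of all genes), those 5 with Col4a1, Col4a2, Col5a2, Col6a1 and Col6a2 higher and Col8a2 lower. The fit of the 2 air groups alone called 4 higher (2.27% of all genes).

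The edgeR estimates of these 10 genes lay between 0.22 and 0.41 log2 units. The largest was that of Col14a1, 0.41 ± 0.13 (adjusted p = 0.0954), followed by Col5a2 at 0.29 ± 0.10 (adjusted p = 0.119). Col4a2 gave 0.27 ± 0.11 (adjusted p = 0.183), and its 6 DHA-diet air libraries, at 370.4 to 395 CPM, all lay above the control-diet air libraries, at 270.1 to 358 CPM. Groups did not overlap for 1.85% of all genes here. Col8a2, with −0.30 ± 0.10 (adjusted p = 0.134), went the other way. The median log2 change of the 34 genes was 0.07, beside 0.00 for all genes. Fibroblast marker sums ran from 4143 to 4642 CPM in control-diet air and from 4623 to 5257 in DHA-diet air. Inmt and Ces1d, at means of 2180 and 1108 CPM over the 24 libraries, carried most of them. Some other lists shifted too. Medians in control-diet and DHA-diet air were 870 and 718 CPM (smooth muscle), 1988 and 1585 (cardiac muscle), 39.8 and 27.7 (skeletal muscle) and 488 and 707 (mesothelium). The part of these lists in the collagen values was not tested.

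**Figure D5:**
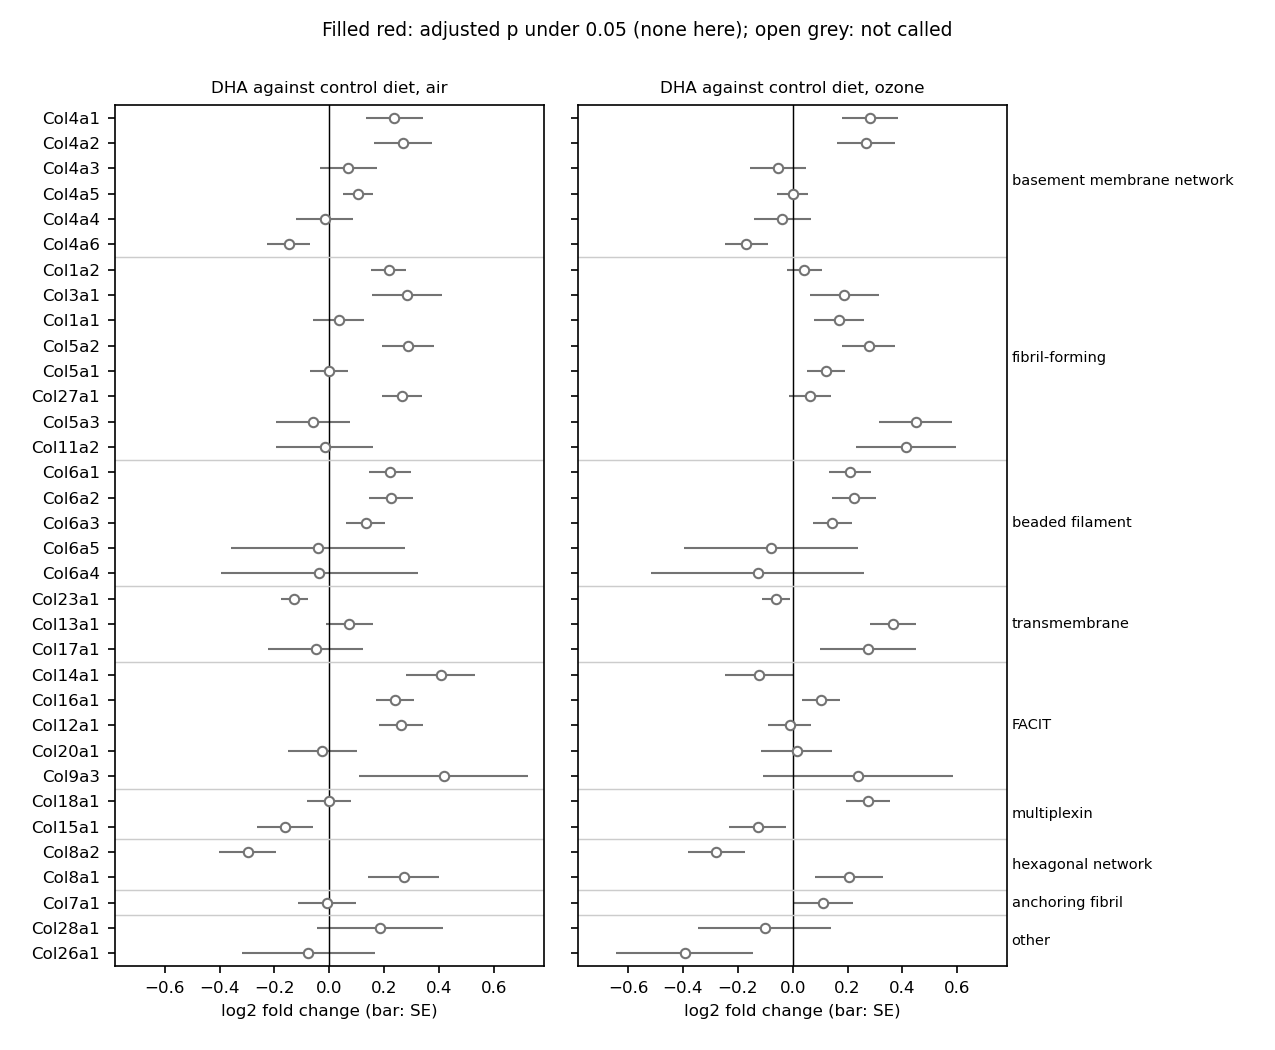
Log2 fold change of the DHA diet against the control diet for the 34 collagen chain genes, by class, in filtered air (left) and after ozone (right); bars are SE, and no gene passed an adjusted p of 0.05. In air 19 of 34 points lie above 0 and after ozone 22 of 34.

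Leaving out some single libraries, like the choice of test, changed how many genes were called in this comparison. Without control-diet air library 6 there were 6 higher and 3 lower (4.42% of all genes called), and without DHA-diet ozone library 1 there were 5 higher (4.03%). Without control-diet ozone library 1 there was 1, Col14a1, with 161 of all 16237 genes called higher and 101 lower. The last 2 libraries are in neither group of the comparison and bear on it through the shared estimate of spread. Col4a1 and Col4a2 were among the 5, at 0.23 (adjusted p = 0.0165) and 0.27 (adjusted p = 0.00873). The control-diet air libraries also serve the ozone comparison on that diet, where Col12a1 and Col16a1 were called, so those results share samples.

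After ozone, the diets did not differ for any collagen gene in edgeR, as for all 16153 genes (0% called). The smallest adjusted p was 0.112, for Col13a1 at 0.37 ± 0.09, which DESeq2 called higher (adjusted p = 0.0198, with 0.464% of all genes called). At an unadjusted p under 0.05 there were 9 higher and 2 lower, beside 6.96% and 7.03% of all genes. Col5a3 lay at 3.65, 3.79 and 4.58 CPM in control-diet ozone and at 4.64, 5.22 and 6.37 in DHA-diet ozone, without overlap, as was seen for 0.830% of all genes. Its difference was 0.45 ± 0.13 (adjusted p = 0.175). All 8 fibril-forming genes had a positive estimate, with a median of 0.18 beside 0.01 for all genes, but 3 of them had an unadjusted p under 0.05 and none was called; DHA-diet ozone library 1 was the highest of the 24 for Col1a1, Col3a1, Col5a1 and Col5a2. Without DHA-diet ozone library 2, Col13a1 and Col18a1 were called higher on the DHA diet, with 0.887% of all genes called. The interaction of diet and ozone called none of the 34 genes (0% of all genes), and 5 had an unadjusted p under 0.05 (6.12% of all genes), namely Col5a3, Col13a1 and Col18a1 with a positive and Col12a1 and Col14a1 with a negative estimate.

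Genes that make, process and bind collagen were taken from 7 lists of 88 genes. The interaction of diet and ozone called 0 genes in each of these lists. An ozone call on the DHA diet alone or the control diet alone is therefore not a shown difference between the diets. Of 20 genes for folding and modification in the endoplasmic reticulum, 4 rose and 0 fell with ozone on the control diet, and 5 rose and 3 fell on the DHA diet. P4hb, the protein disulfide isomerase subunit of prolyl 4-hydroxylase, rose from 594 ± 26.3 to 742 ± 43.6 CPM on the control diet (0.32 ± 0.05, adjusted p = 0.000128) and from 627 to 797 CPM on the DHA diet (0.35 ± 0.05, adjusted p = 2.79e-05). Plod2, a lysyl hydroxylase of collagen cross-linking sites, fell on the DHA diet by 0.29 ± 0.06 (adjusted p = 0.00148). P4ha3, a catalytic subunit of prolyl 4-hydroxylase, rose on the control diet from 0.946 to 1.78 CPM (0.92 ± 0.23, adjusted p = 0.00712) and stood at 2.10 and 2.24 CPM on the DHA diet; without control-diet air libraries 1 to 3 the call was lost (adjusted p = 0.0905). It was also higher on the DHA diet in filtered air (1.15 ± 0.23, adjusted p = 0.0133), a call lost, like every call of this comparison, without control-diet air libraries 1 to 3. Colgalt2, a collagen galactosyltransferase, fell on the DHA diet by 0.29 ± 0.10 (adjusted p = 0.0390), a call lost in 13 of 35 alternatives.

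Outside the cell, Bmp1, the procollagen C-proteinase, was the only 1 of 7 tested propeptide-cleavage genes that was called, lower on both diets (−0.21 ± 0.07, adjusted p = 0.0376, and −0.24 ± 0.07, adjusted p = 0.0138). The first of these calls was lost in 9 of 35 alternatives. Of 7 cross-linking genes none was called on the control diet, while on the DHA diet the lysyl oxidase relative Loxl1 rose by 0.35 ± 0.11 (adjusted p = 0.0171) and the peroxidase Pxdn, which cross-links collagen IV, fell by 0.18 ± 0.06 (adjusted p = 0.0472). Without DHA-diet ozone library 1 the Loxl1 change was 0.25 and not called, and the Pxdn call was lost in 18 of 35 alternatives.

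Fibril-associated proteoglycans and glycoproteins were called on the DHA diet, 1 of 13 higher and 5 lower, and none on the control diet. The difference between the diets was called for 0 of the 13 (smallest adjusted p of the interaction 0.664). Tnxb, the matrix glycoprotein tenascin-X, fell from 113 ± 4.09 to 75.1 ± 14.5 CPM (−0.59 ± 0.09, adjusted p = 4.3e-05). Dpt, dermatopontin, fell from 190.3 to 149 CPM (−0.35 ± 0.08, adjusted p = 0.00133). It was higher on the DHA than on the control diet in filtered air (0.37 ± 0.08, adjusted p = 0.0156). That diet call was lost, like every call of the diet comparison in air, without control-diet air libraries 1 to 3. Aspn, asporin, fell by 0.40 ± 0.12 (adjusted p = 0.0141), and the call was lost without DHA-diet air library 1 and without DHA-diet ozone libraries 1 and 2. Fn1, fibronectin, rose by 0.44 ± 0.15 (adjusted p = 0.0323), a call lost in 10 of 35 alternatives. The small proteoglycan Bgn was higher on the DHA diet in air (0.24, adjusted p = 0.0364). This call too was lost, with every other call of that comparison, without control-diet air libraries 1 to 3. Bgn lies outside the naming rule and was chosen after its values were seen.

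Among 13 basement membrane partners, 2 fell with ozone on the control diet and 4 on the DHA diet. The laminin chain Lama5 fell from 205 to 166 CPM on the control diet and from 195 to 161 on the DHA diet (−0.30 ± 0.05, adjusted p = 0.000324, and −0.28 ± 0.05, adjusted p = 0.000441). Agrn, the heparan sulfate proteoglycan agrin, fell by 0.22 ± 0.05 (adjusted p = 0.00201) and 0.15 ± 0.05 (adjusted p = 0.0225), the second lost without DHA-diet air library 5 or DHA-diet ozone library 3. Lama3 fell on the DHA diet by 0.38 ± 0.08 (adjusted p = 0.00106).

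Of 10 receptor and uptake genes 0 rose and 1 fell on the control diet, and 0 rose and 3 fell on the DHA diet. Itga11, the alpha subunit of a fibroblast collagen integrin, fell by 0.47 ± 0.15 (adjusted p = 0.0338) and 0.59 ± 0.16 (adjusted p = 0.00695), the first lost in 7 of 35 alternatives. Ddr2, a receptor tyrosine kinase for fibrillar collagen, was higher on the DHA diet in air, at 127 ± 8.12 against 98.5 ± 3.05 CPM (0.37 ± 0.06, adjusted p = 0.00628), and fell with ozone on that diet to 105 CPM (−0.27 ± 0.06, adjusted p = 0.00268). The diet difference was not called without control-diet air libraries 1 to 3. No gene at all was called in filtered air in that fit, so the loss is not particular to Ddr2. Itga10 fell on the DHA diet by 0.44 ± 0.14 (adjusted p = 0.0204), lost without DHA-diet air library 2.

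In the list of 17 transforming growth factor beta ligands and regulators, 1 gene, Ltbp3, fell on each diet. Its product binds latent transforming growth factor beta in the matrix, and it fell by 0.27 ± 0.06 (adjusted p = 0.00190) and 0.29 ± 0.06 (adjusted p = 0.000512). For all 88 genes of these lists the background is the same as for the collagens, 16.8% of genes called on the control diet and 23.7% on the DHA diet.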

How the data were processed

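RNA of 24 mouse lung libraries, 6 per group, was measured as whole-number counts per gene, 18053493 to 26225630 per library. The authors' deposited counts came from STAR alignment to mm39 and HTSeq counting in Partek, per the submitters' processing notes; no version or strand setting was stated. Counts were fitted in edgeR 4.0.16 (R 4.3.3; quasi-likelihood test, trimmed mean of M-values scaling, filterByExpr with a minimum count of 10 and total of 15, a mean for each of 4 groups, residual df 20), with Benjamini-Hochberg adjustment over 16153 genes. The main edgeR fit was tested on simulated counts, and the alternatives were not. The precision is set by the 6 libraries per group. Members, classes and lists were chosen with earlier results of these data known. Values in every group are given for members called in any of 5 comparisons and for the most abundant member of each class; of each other list, up to 4 called genes with the largest ozone change are named. Alternatives were other scalings, filters and thresholds, a replicate block, DESeq2 1.42.0, limma-voom (limma 3.58.1), 2 groups alone and leaving out libraries. Some left out only libraries in neither group of a comparison, which bear on it through the shared fit alone. Leaving out control-diet air libraries 1 to 3 or 4 to 6, or DHA-diet ozone libraries 1 and 2, was chosen after seeing the data. Some called genes of these lists, and the counts of genes that rose among basement membrane partners and transforming growth factor beta regulators, are not reported here.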

Additional observations from a re-analysis of the deposited data

Results flagged for a closer look

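Over 136 sets of 6 libraries, 1 per gene and group, 11 had an extreme library by Dixon's rule. Its gap to the next, as a share of the range, passed the 95% critical value for 6 values. Chance gives about 1 set in 20 where values are normally distributed. The sets share the same 24 libraries and are not independent, so the 11 were not tested against that rate. Library 1 of DHA-diet ozone was the highest of its group for Col4a1 (758 CPM, next 457) and Col4a2 (676 CPM, next 404), and the lowest for Col14a1 (25.7 CPM, next 35.8). Library 1 of control-diet ozone was the lowest of its group for Col4a3 (85.8 CPM, next 104), Col4a4 (47.4 CPM, next 69.1), Col6a1 (179 CPM, next 241), Col6a2 (123 CPM, next 158) and Col14a1 (21.8 CPM, next 38.9). Its mesothelial marker sum, 223 CPM, was the lowest of the 24 libraries, and its part in these values was not tested. Col4a3 was lowest in library 1 of DHA-diet air (86.0 CPM, next 108). Col8a2 was lowest in library 6 of control-diet air (26.3 CPM, next 37.1). Col9a3 was lowest in library 6 of DHA-diet air (0.192 CPM, next 0.873).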

How the results depend on the processing

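No collagen gene and no named list gene, where called for ozone, changed direction in the alternatives run. The counts below are of all collagens called in a setting, which need not be the same genes. On the control diet 3 collagens rose with ozone (1442 of all genes). Leaving out 1 library gave 1 to 7, with 1 without control-diet air library 4 (1084 of all genes). The 7 came without control-diet ozone library 1 (1293 of all genes). Limma-voom gave 7 (1698 of all genes), leaving out control-diet air libraries 1 to 3 gave 0 and an adjusted p under 0.01 gave 0. The 3 that fell (1271 of all genes) became 0 to 3 without 1 library and 5 with library totals (1737 of all genes). The count was 1 without control-diet air libraries 4 to 6, where the 3 were lost and Col4a6 was newly called, and 0 at 0.01. Leaving out control-diet air library 6 alone likewise lost the 3 and gained Col4a6. On the DHA diet the 4 that rose (2055 of all genes) became 2 to 4 without 1 library. They became 2 without DHA-diet ozone libraries 1 and 2 and 2 at 0.01. Without DHA-diet air library 3 there were also 2 (1687 of all genes). The 4 that fell (1769 of all genes) became 1 to 5 without 1 library, 2 with no filter (1548 of 21853 genes) and 1 at 0.01. There was 1 without DHA-diet air library 3 (1488) and 5 without control-diet ozone library 1 (1717). For the diets in air, 0 higher became 0 to 6 without 1 library, the 6 without control-diet air library 6 (4.42% of all genes called). It became 5 with DESeq2 (3.65%), 10 with limma-voom (5.26%) and 4 with 2 groups alone (2.27%). Without control-diet air libraries 4 to 6 it was 5 (9.43%), and without DHA-diet ozone libraries 1 and 2 also 5 (4.57%). There 0 lower became 0 to 3 without 1 library, 1 with limma-voom and 3 without control-diet air libraries 4 to 6. After ozone 0 higher became 0 to 2 without 1 library and 1 with DESeq2; 0 lower and the interaction counts stayed at 0. Apart from the stricter threshold, the cause of these changes was not tested.

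With the replicate number as a block, ozone raised 3 and lowered 2 on the control diet and raised 3 and lowered 5 on the DHA diet. The other comparisons held 0 collagen calls. Of all 16153 genes, this fit called 1267 higher and 1060 lower on the control diet and 1843 and 1590 on the DHA diet. The numbers did not pair libraries: the mean correlation of same-numbered libraries was −0.0169, 0 of 36 pairs were over 0.1, and 0 of 24 libraries were closest to their own number. Genes at a mean under 1 CPM (Col6a4, Col6a5 and Col9a3) had standard errors above 0.3, so even changes larger than that could go uncalled. Col9a3 was not called at ozone changes of −0.56 on the control diet and −0.74 on the DHA diet.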
